A study of Mus musculus with 2 samples.

Results

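The 6 microRNA genes described here, Mir181a-1, Mir181b-1, Mir150, Mir142, Mir155 and Mir17, were taken by name from the 2202 microRNA genes of the GENCODE M21 annotation. All 6 were found in the annotation, and they lie at 5 loci, because Mir181a-1 and Mir181b-1 are neighbours in 1 transcript. Chromatin accessibility around them was mapped by DNase-seq in whole thymus of male B6CASTF1/J mice (an F1 cross of C57BL/6J and CAST/EiJ), 2 months old, in 1 group of 2 replicates. No genotype change, treatment or second condition is given, so no test between groups was possible, and all values below describe these 2 samples. The labels number a separate animal for each replicate but give both the same donor identifier, so the spread between them may be technical.

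A microRNA is cut from a hairpin in a longer primary transcript and then pairs with messenger RNAs mainly through its seed, bases 2 to 8, lowering their translation or stability. In developing T cells, miR-181a is known to raise sensitivity of T cell receptor signalling during selection. miR-150 is known for limiting the transcription factor Myb in lymphocytes, and miR-142 is a microRNA of blood cells in general. miR-155 is known to be induced when lymphocytes are activated, and the miR-17 to miR-92 cluster is known to favour growth and survival of lymphocyte progenitors. Accessible chromatin at a start site is a common feature of genes that can be transcribed, but DNase-seq does not measure the transcripts or the mature microRNAs themselves.

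The mature sequences are shown because the seed decides which family a microRNA belongs to; capitals mark the seed. They are RefSeq's on GRCm38.p6, and the names follow the table. For Mir150 the arm shown is miR-150-3p. The arm known to act on Myb, miR-150-5p, was absent from the sequences used, so its seed is neither shown nor compared.
miR-181a-5p: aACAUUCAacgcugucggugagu
miR-181b-5p: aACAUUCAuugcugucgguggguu
miR-142a-5p: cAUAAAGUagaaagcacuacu
miR-142a-3p: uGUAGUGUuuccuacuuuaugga
miR-155-5p: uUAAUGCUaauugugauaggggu
miR-17-5p: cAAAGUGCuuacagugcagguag
miR-150-3p: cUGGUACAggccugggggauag
The seed of miR-181a-5p and miR-181b-5p was the same, ACAUUCA, and no other pair among the 11 mature arms of the 6 genes in the table shared a seed. The 2 members of the miR-181 family thus have 1 seed and 1 host transcript, and their start site values are given once.

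Each strict peak carries a score, the submitters' signal value for that peak, which has no upper bound and is given below for replicate 1 and then replicate 2. A shared region is the union of strict peaks of both replicates that overlap by at least 1 bp. The host start is the annotated transcription start site (TSS) of a gene on the same strand whose transcript spans the hairpin, and where no such gene exists the microRNA gene's own start was used. Footprints are short protected stretches inside accessible chromatin, and they were used as positions only. The thymus is bulk tissue, so fewer cells with an open site and less accessibility per cell cannot be told apart.

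The label of the tissue was compared with marker genes. A peak lay within 1000 bp of a TSS in both replicates for 8 of 8 thymocyte markers, against 59% of protein-coding genes. Among markers of other cell types it was 3 of 14 genes in both replicates: 0 of 3 for B cells, 0 of 3 for macrophages, 1 of 3 for thymic epithelium, 1 of 3 for erythroid cells and 1 of 2 for endothelium. The 3 genes were Aire, with scores of 5.23 and 3.99, Gata1, with 1.01 and 0.517, and Pecam1, with 2.73 and 2.22. Cd68 had 0.733 in replicate 1 alone, and the remaining 10, Foxn1 and Psmb11 of thymic epithelium among them, had no strict peak near a TSS. The part of these other cells in the results was not tested. Replicate 1 had 62230 strict peaks and replicate 2 had 66839 after overlapping entries were joined, with 51709 shared regions. The number of sequenced reads is not stated in the files.

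All 6 members had a peak within 1000 bp of the host start in both replicates, the pair Mir181a-1 and Mir181b-1 through the same start, against 45.9% of all microRNA genes (1010 of 2202). A host was annotated for 1172 of these 2202 genes, and for every member but Mir150. Genes without a host were scored at their own start, and the share among genes with a host is not given. The 5 start sites covered a wide range of scores. The host of Mir142 scored highest, with 14.7 and 13.2 and a mean of 14.0 ± 1.04 (SD, n = 2). The host of Mir181a-1 and Mir181b-1 followed with 10.9 and 7.21, a mean of 9.08 ± 2.64 (SD, n = 2). The start of Mir150 had 7.63 and 5.17, a mean of 6.40 ± 1.74 (SD, n = 2). The host of Mir17 had 5.46 and 4.11, a mean of 4.78 ± 0.955 (SD, n = 2). The host of Mir155 was lowest, with 2.53 and 2.10 and a mean of 2.32 ± 0.304 (SD, n = 2). The values of the Mir142 host did not overlap those of any other member, and neither did those of the Mir155 host. Between them, the ranges of the Mir181 host and Mir150 overlapped, as did those of Mir150 and Mir17, although the order of the 5 was the same within each replicate. With 2 replicates no test of the order was possible. The place of Mir17 depends on the window: within 500 bp of its host start replicate 1 had no peak, and within 2500 bp the mean was 7.13, above that of Mir150. It was also above the median of 5.57 given below, but that median is for 1000 bp. None is given for 2500 bp.

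**Figure D1:**
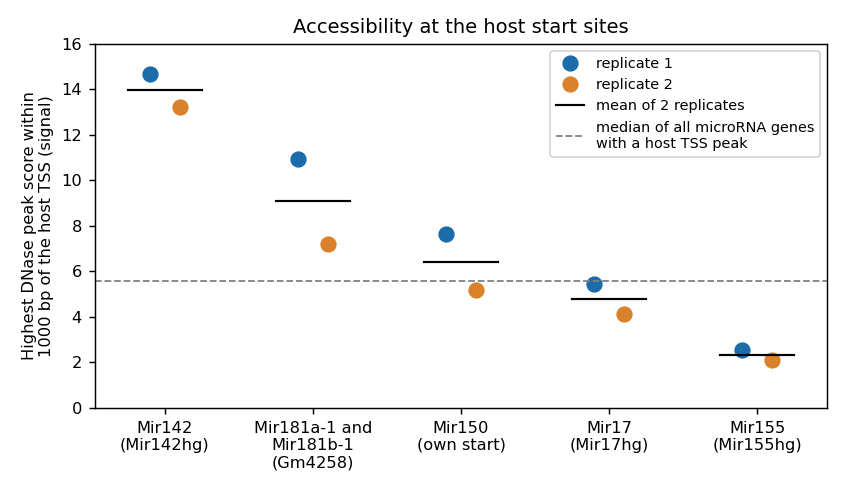
Highest strict peak score (signal) within 1000 bp of the host start for the 5 loci; points are the 2 replicates, short lines their mean, and the dashed line is the median of microRNA genes with such a peak in both replicates, 5.57. The mean runs downward across the loci, 14.0 for Mir142 and 2.32 for Mir155 at the ends, and in this window the Mir17 and Mir155 hosts lie below the dashed line.

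The members were set among the 1010 microRNA genes with a host start peak in both replicates, whose median score was 5.57. The Mir142 host was at or above 89.6% of them, a share that counts the member itself and genes of equal score. The Mir181 host was at or above 69.4%, Mir150 at or above 55.7% and the Mir17 host at or above 43.6%. The Mir155 host was at or above 16.3% only. A peak at the host start was thus common to the 6 members, while its height placed them across most of the range of the annotated microRNA genes.

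Peaks at the hairpins themselves were rarer. A peak within 1000 bp of the hairpin in both replicates was found for 2 of the 6 members, Mir142 and Mir150, against 12.1% of all microRNA genes (266 of 2202). For Mir150, which has no host, it is the same peak as the one counted at its start above. Mir155 and Mir17 had such a peak in 1 replicate each, and Mir181a-1 and Mir181b-1 in neither.

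The number of shared regions within 50 kb of the hairpin also differed between the loci. All 6 members had at least 1, against 66.5% of all microRNA genes (1465 of 2202). Mir142 had 23 shared regions and Mir150 had 14. Mir17 had 5, Mir155 had 3, and Mir181a-1 and Mir181b-1 had 1, which is the same region. The median over all microRNA genes was 3, with quartiles at 0 and 6 and a highest value of 27. Fewer regions than at Mir142 were found for 99.3% of microRNA genes, and fewer than at Mir150 for 94.6%, whereas 57.5% had more than the Mir181 pair. Part of each count belongs to neighbouring genes: 10 protein-coding genes have a TSS within 50 kb of Mir150, 4 of Mir142, 1 of Mir155, 1 of Mir17 and 0 of the Mir181 pair.

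**Figure D2:**
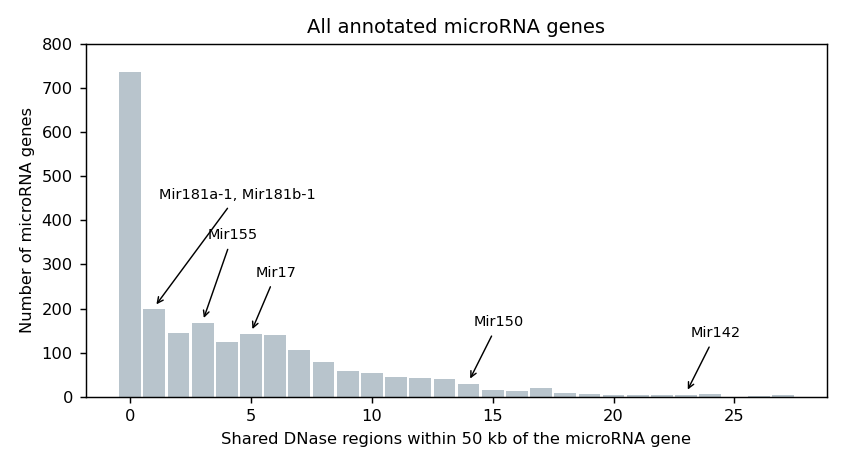
Number of shared DNase regions within 50 kb (x axis) against the number of microRNA genes (y axis) for all 2202 annotated microRNA genes; arrows mark the members. Mir142 with 23 and Mir150 with 14 lie in the right tail, and the Mir181 pair with 1 lies next to the bar of genes with none.

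Mir142 (chr11:87756864-87756927, mm10, plus strand) lies in the intron of Mir142hg, a long noncoding RNA whose only annotated start is 1287 bp upstream of the hairpin. Of the 23 shared regions, 17 were upstream of the hairpin, 1 overlapped it and 5 were downstream, and 13 lay over 1000 bp from any TSS. The strongest, chr11:87755421-87755680, covered the host start and scored higher than 97.0% of strict peaks in replicate 1 and 98.6% in replicate 2. A second strong region, chr11:87754641-87754880, had its midpoint 816 bp before the start and scored 12.1 and 9.67. Between the start and the hairpin, the intronic region chr11:87756521-87756820 ended 44 bp before the hairpin and scored 6.87 and 4.55. The region that reached over part of the hairpin was weaker, with 3.39 and 2.02, and only its peak in replicate 2 overlapped the hairpin. All 64 bases of the hairpin were nevertheless at a false discovery rate (FDR) of at most 0.001 in both replicates. The start site region is shown because it is the strongest of any member; capitals mark bases inside footprints of both replicates.
Mir142hg start, chr11:87755421-87755680 (mm10, plus strand): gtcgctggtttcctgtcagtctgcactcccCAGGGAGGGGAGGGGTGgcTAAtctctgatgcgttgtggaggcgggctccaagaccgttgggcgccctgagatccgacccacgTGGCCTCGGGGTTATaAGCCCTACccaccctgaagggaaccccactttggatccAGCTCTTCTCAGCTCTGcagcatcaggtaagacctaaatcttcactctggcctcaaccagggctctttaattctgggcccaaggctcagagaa
It held 5 footprints in replicate 1 and 6 in replicate 2, and 4 of those in replicate 1 overlapped one in replicate 2. A CACGTG, the E-box form bound by MYC and related factors, lay 44 bp before the start and was touched by a footprint of both replicates. These letters occur in 5.77% of 200 bp windows centred on all shared regions, and they were the only match in this window to the motifs searched.

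Further upstream of Mir142, 3 intergenic regions scored 8.05 and 6.35, 10.9 and 6.70, and 7.07 and 4.78, at 7864, 7104 and 4884 bp from the hairpin. The percentile of each among strict peaks was at least 85.9 in both replicates, and none lay near an annotated TSS. The other strong region was the promoter of Supt4a, a subunit of a transcription elongation factor, with 14.1 and 11.2. The promoter region of Tspoap1 downstream had 5.30 and 4.95. Farther upstream, 5 shared regions lay in Rnf43, which codes for a ubiquitin ligase that lowers Wnt receptor levels. The remaining upstream regions included an intergenic one, chr11:87745001-87745280, with 6.33 and 4.02. Over the locus, 64 footprints of replicate 1 in shared regions overlapped one of replicate 2, out of 98 in replicate 1 and 96 in replicate 2.

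**Figure D3:**
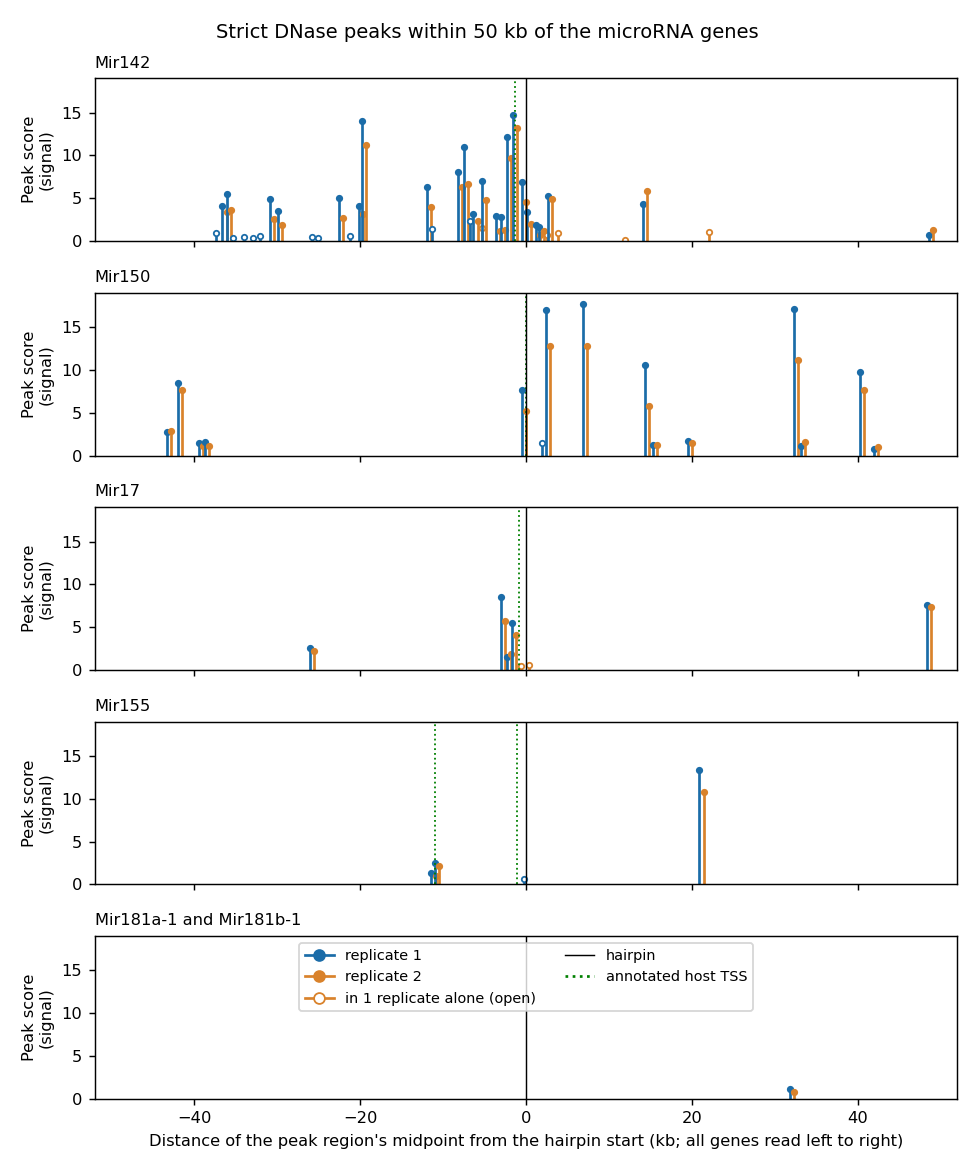
Strict peak scores (signal, y axis) against the distance of each region's midpoint from the hairpin start (kb, x axis) at the 5 loci; the replicates are drawn slightly apart, open points are regions of 1 replicate alone, black lines the hairpin and green dotted lines annotated host starts. Mir142 has strong regions spread over its upstream side, the peaks by Mir150 include the taller promoter of Rpl13a with 17.8 and 12.8, and the Mir181 panel holds 1 weak region of 1.14 and 0.778.

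Mir150 (chr7:45121757-45121821, mm10, plus strand) has no host gene in the annotation. The nearest shared region, chr7:45121381-45121720, ended 37 bp before the hairpin, lay within 1000 bp of the start of Gm45552 as well, and scored 7.63 and 5.17, higher than 88.8% and 87.2% of strict peaks. The strict peak of replicate 1 there was narrower, chr7:45121501-45121580, than that of replicate 2, which spanned the whole region. The 65 bases of the hairpin were at an FDR of at most 0.001 in both replicates, although no strict peak covered them. The region held 9 footprints in replicate 1 and 6 in replicate 2, 5 of them overlapping.

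Several strong regions elsewhere around Mir150 lay at promoters of other genes. That of Rpl13a, which codes for a ribosomal protein, scored 17.8 and 12.8. The region at the starts of Pih1d1 and Aldh16a1, which overlaps both genes, scored 17.1 and 11.1. The promoter of Flt3l, the ligand of the progenitor receptor Flt3, scored 10.6 and 5.77. Of the 14 shared regions 4 lay over 1000 bp from any TSS, and the highest of these scored 9.73 and 7.61 at 40120 bp downstream and 8.45 and 7.68 at 41637 bp upstream. The promoter regions of Rpl13a, of Pih1d1 and Aldh16a1 and of Flt3l each scored higher in both replicates than the region beside Mir150. So did the distal regions at 40120 bp downstream and 41637 bp upstream.

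Mir181a-1 (chr1:137966455-137966541, mm10, plus strand) and Mir181b-1 (chr1:137966639-137966718) lie in a long stretch without a shared region. Their host, the noncoding gene Gm4258, holds both hairpins in an intron. Its transcript that spans them starts 67857 bp upstream of Mir181a-1, outside the 50 kb window. That start region, chr1:137898481-137898760, scored 10.9 and 7.21, higher than 93.8% and 92.2% of strict peaks, and held 6 footprints in replicate 1 and 5 in replicate 2. It was followed within the gene by 4 weaker shared regions, whose midpoints lay 1806 to 7083 bp past the start and whose highest scored 2.81 and 1.65. From the last of them on, 92717 bp around the hairpins held no shared region. The next one, chr1:137998458-137998660, is 31917 bp past Mir181a-1 in an intron of Gm4258 and scored 1.14 and 0.778, above 37.2% and 25.9% of strict peaks.

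Near the Mir181 hairpins themselves no base of either hairpin was listed at an FDR under 0.05 in either replicate. Over the window of 50 kb to each side of Mir181a-1, 268 bases in replicate 1 and 605 in replicate 2 were listed under that limit. A second noncoding transcript, A430106G13Rik, starts 108 bp before Mir181b-1, and its nearest strict peak was 31946 bp away in replicate 1 and 31927 bp in replicate 2. Around Mir181b-1, 24.9% of the bases in the window are soft-masked repeats and 38.1% are G or C, and their part in the empty stretch was not tested. Among annotated starts of the Mir181 pair, only that of Gm4258 thus had a strict peak within 1000 bp. Its sequence is shown for that reason, with capitals as above.
Gm4258 start, chr1:137898481-137898760 (mm10, plus strand): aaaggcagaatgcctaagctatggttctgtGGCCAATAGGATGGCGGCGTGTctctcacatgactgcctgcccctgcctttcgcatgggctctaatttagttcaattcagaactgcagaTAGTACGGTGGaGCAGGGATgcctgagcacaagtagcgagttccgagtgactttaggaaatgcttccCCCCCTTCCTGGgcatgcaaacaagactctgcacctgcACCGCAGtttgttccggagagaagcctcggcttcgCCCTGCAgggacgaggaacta
In the central 200 bp window, footprints of both replicates touched a CAGGAA, a form bound by ETS factors and found in 28.0% of windows, on the minus strand 77 bp past the start. They also touched an AACTG, a core bound by MYB and found in 34.6% of windows, 113 bp past the start. The CCAAT in capitals near the left end, the letters of the NFY search, lies outside that window and was not counted.

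Mir155 (chr16:84714140-84714204, mm10, plus strand) lies in an exon of Mir155hg, a noncoding RNA with annotated starts 10973 and 1117 bp upstream of the hairpin. Only the more distant start had strict peaks in both replicates. There chr16:84703221-84703500, just past the start, scored 2.53 and 2.10, and chr16:84702761-84703200 scored 1.33 and 1.01. The first was above 66.2% and 65.9% of strict peaks and the second above 43.2% and 37.1%. At the start nearer to the hairpin, the nearest strict peak was 1040 bp away in replicate 1 and 9523 bp in replicate 2. Over the hairpin, replicate 1 had a peak of 0.578, and replicate 2 had one of 0.468 in its looser list alone, with lowest FDR values in the hairpin of 5.29e-06 and 0.00551. The strongest region of the locus belonged to Mrpl39, a mitochondrial ribosomal protein gene, with 13.4 and 10.8.
Mir155hg upstream start, chr16:84703221-84703500 (mm10, plus strand): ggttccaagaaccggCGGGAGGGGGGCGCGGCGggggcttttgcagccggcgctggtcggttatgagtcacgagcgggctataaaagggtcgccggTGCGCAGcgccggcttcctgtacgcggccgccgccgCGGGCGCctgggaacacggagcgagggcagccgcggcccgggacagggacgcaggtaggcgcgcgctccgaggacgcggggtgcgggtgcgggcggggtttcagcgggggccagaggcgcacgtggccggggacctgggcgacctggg
This sequence is shown for its base content: a 200 bp window at its centre held 33 CpG, more than 99.1% of the windows of all shared regions, whose median was 5. It also held a match to TGANTCA, the form bound by AP-1 factors, 120 bp past the start, and no footprint of either replicate touched it. That motif occurs in 4.92% of windows. Of the 5 footprints in each replicate, 3 overlapped. A high CpG number thus stood here beside a middling score.

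Mir17 (chr14:115043671-115043754, mm10, plus strand), in an exon of Mir17hg, opens a cluster whose other members, Mir18, Mir19a, Mir20a, Mir19b-1 and Mir92-1, share this host and therefore its start site values. The annotated start of Mir17hg is 792 bp upstream of Mir17, and accessibility was highest before it. The region chr14:115040741-115041000, with its midpoint 2008 bp before the annotated start, scored 8.51 and 5.75. The region chr14:115042141-115042360, 628 bp before it, scored 5.46 and 4.11, and a weaker region between them 1.54 and 1.88. At the annotated start itself, replicate 2 had a peak of 0.511 and replicate 1 had none, and over the hairpin replicate 2 alone had one of 0.577. The further 2 shared regions were an intergenic one 25711 bp upstream, with 2.59 and 2.26, and the promoter of Gpc5, a glypican gene, with 7.56 and 7.38. The pair of main upstream regions is shown because together they hold the strongest accessibility near the annotated start.
Upstream of Mir17hg, chr14:115040741-115041000 (mm10, plus strand): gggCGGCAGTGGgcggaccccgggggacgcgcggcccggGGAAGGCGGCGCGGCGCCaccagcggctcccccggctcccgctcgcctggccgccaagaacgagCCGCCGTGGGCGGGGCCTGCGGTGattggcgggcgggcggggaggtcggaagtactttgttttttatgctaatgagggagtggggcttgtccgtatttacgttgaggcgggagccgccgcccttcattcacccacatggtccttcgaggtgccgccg
Upstream of Mir17hg, chr14:115042141-115042360 (mm10, plus strand): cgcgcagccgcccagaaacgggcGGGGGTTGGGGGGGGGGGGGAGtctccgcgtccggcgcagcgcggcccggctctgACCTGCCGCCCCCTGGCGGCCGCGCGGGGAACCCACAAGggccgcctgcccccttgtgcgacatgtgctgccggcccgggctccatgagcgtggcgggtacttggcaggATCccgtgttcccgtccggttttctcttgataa
Windows of 200 bp in them held 25 and 23 CpG, more than 93.9% and 91.7% of windows. Within these windows, footprints of both replicates touched 1 GGGCGG, bound by SP and KLF factors and found in 26.8% of windows, in the upper region and both GGGCGG matches in the lower one. Letters outside the windows were not searched. Neither window held CACGTG or the E2F forms TTCCCGC and TTGGCGC, which says only that these letters are not there.

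**Figure D4:**
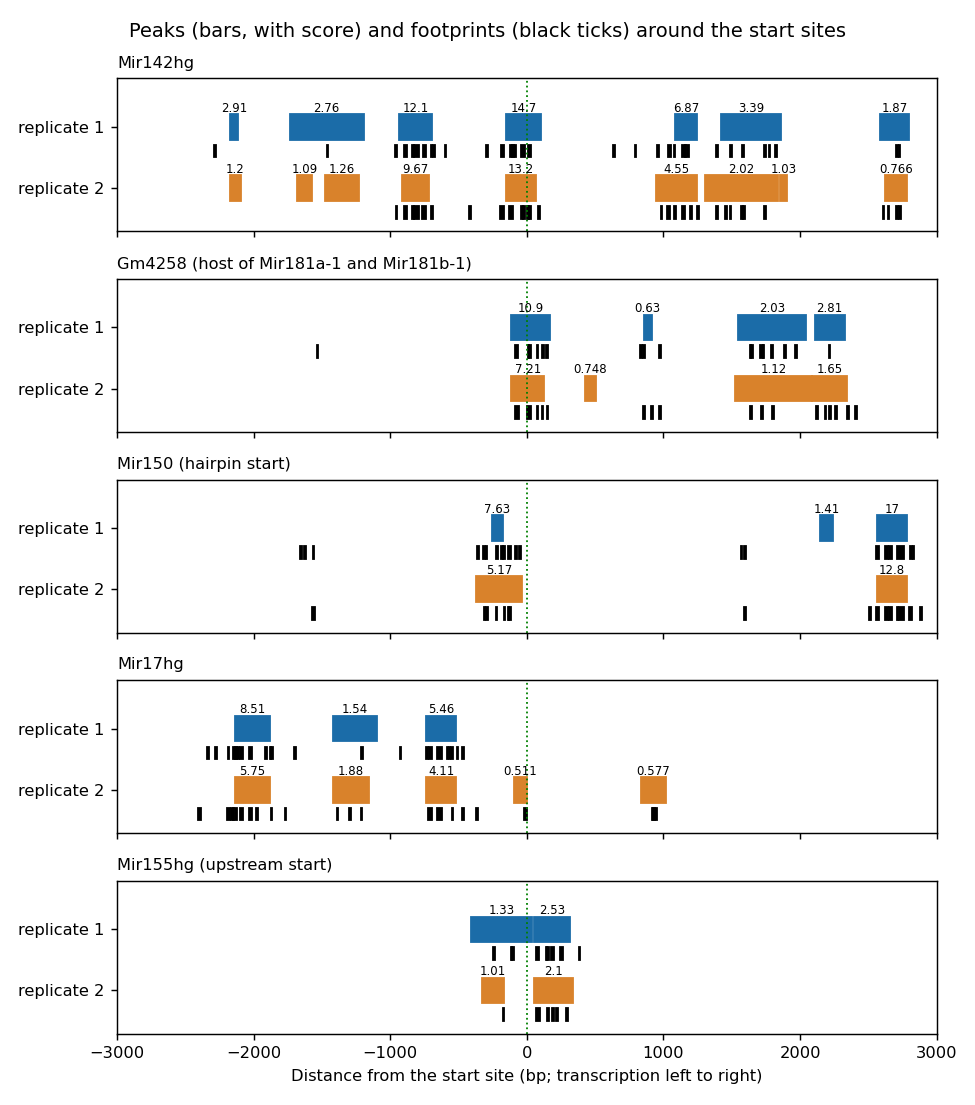
Strict peaks (bars, with their score) and footprints (black ticks) of each replicate against the distance from the start site (bp), for the hosts of Mir142, the Mir181 pair, Mir17 and Mir155 and for Mir150 itself. Peaks cover the start of Mir142hg and Gm4258, precede the hairpin start of Mir150, and at Mir17hg lie mostly before the annotated start, with 8.51 and 5.75 in the farthest.

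Footprints were about as common in regions of these loci as elsewhere. Of the 46 shared regions within 50 kb of the members, 39 (84.8%) held a footprint of replicate 1 that overlapped one of replicate 2, against 85.5% of all shared regions. Mir142 had 64 such footprints, Mir150 had 51, Mir17 had 15, Mir155 had 10 and the Mir181 pair had 2. The median of all microRNA genes was 6. In this window of 50 kb the Mir181 pair was lowest in footprints and in regions; within 100 kb it had 8 shared regions, against 8 at Mir17 and 5 at Mir155.

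Most regions of the loci were found in both replicates, with scores mostly higher in replicate 1. The score was higher in replicate 1 in 39 of the 46 shared regions and in replicate 2 in 7. The log2 of the score of replicate 2 over that of replicate 1 had a median of -0.40 and ranged from -1.29 to 0.90, beside a median of -0.22 and an SD of 0.46 over all shared regions. A further 12 regions were found in replicate 1 alone and 7 in replicate 2 alone, of which 10 and 5 were at Mir142. Over the genome it was replicate 2 that had more strict peaks, 66839 against 62230. The shares of all regions found in 1 replicate alone, or scoring higher in replicate 1, are not given, so these counts describe the loci only. The regions of 1 replicate alone included both peaks over the hairpins of Mir155 and Mir17.

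Related microRNA genes were counted in the same way, by a peak at the host or own start in both replicates. Over all microRNA genes the share was the 45.9% given above, and 5 of 13 paralogs of the members (38.5%) had one, a share near it. Those 5 all have an annotated host and the other paralogs have none, so this share goes with the annotation of hosts. Mir106b, Mir93 and Mir25, relatives of the Mir17 cluster inside the replication gene Mcm7, shared its start with 9.24 and 6.93, above the Mir17hg start in both replicates. Mir181c and Mir181d had 2.38 and 1.03 at the start of Nanos3. Mir181a-2 had 0.395 in replicate 2 alone, and Mir181b-2 and the 6 genes of the Mir106a to Mir363 cluster had no strict peak at their own start, no host being annotated for them. Of 10 other lymphoid microRNA genes 8 had a start site peak in both replicates, beside the same 45.9%, among them Mir15a and Mir16-1 at the start of Dleu2 with 12.1 and 11.6, and Mir26a-1 at Ctdspl with 14.8 and 13.1. Mir29a and Mir29b-1, the only genes of that list without an annotated host, had no strict peak at their own start. The share of this list thus also goes with the annotation of hosts. Of 17 microRNA genes of other lineages 2 had one (11.8%, beside 45.9%): Mir126a, a microRNA of endothelium, with 2.96 and 2.25, and Mir203, one of epithelia, with 1.07 and 0.887. The liver gene Mir122, the muscle gene Mir206 and the myeloid gene Mir223 had none.

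Genes that make or carry microRNAs had high scores at their promoters. A peak was present in both replicates for 12 of 12 processing genes, against the 59% of protein-coding genes given above, with a median mean score of 13.6 beside 6.83 for protein-coding promoters with a peak. Drosha, which cuts the primary transcript, had 13.6 and 13.1, and its partner Dgcr8 had 17.4 and 11.9. Dicer1, which cuts the precursor, had 17.0 and 12.5. Of the Argonaute genes, whose proteins carry the mature microRNA, Ago2 had 9.10 and 7.10, and Ago4 was lowest of the list with 0.437 and 0.401. The list as a whole was high, with Ago4 the exception.

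Genes reported elsewhere as targets of these microRNAs also had open promoters, in 16 of 16 cases against 59% of protein-coding genes, with a median mean score of 5.83. For miR-181a, the phosphatase genes Dusp5 and Ptpn22 had 24.0 and 18.3, and 6.56 and 3.43, and Cd69, an activation marker, had 1.93 and 3.04. Myb, reported for miR-150, had 7.96 and 4.97. Socs1, a cytokine signalling inhibitor reported for miR-155, had 18.2 and 13.4. Bcl2l11, which codes for a protein that promotes cell death and is reported for miR-17, had 15.4 and 11.9. The list's median lay below the 6.83 of protein-coding promoters with a peak. Repression by a microRNA acts on the transcript and is not read by these values.

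**Figure D5:**
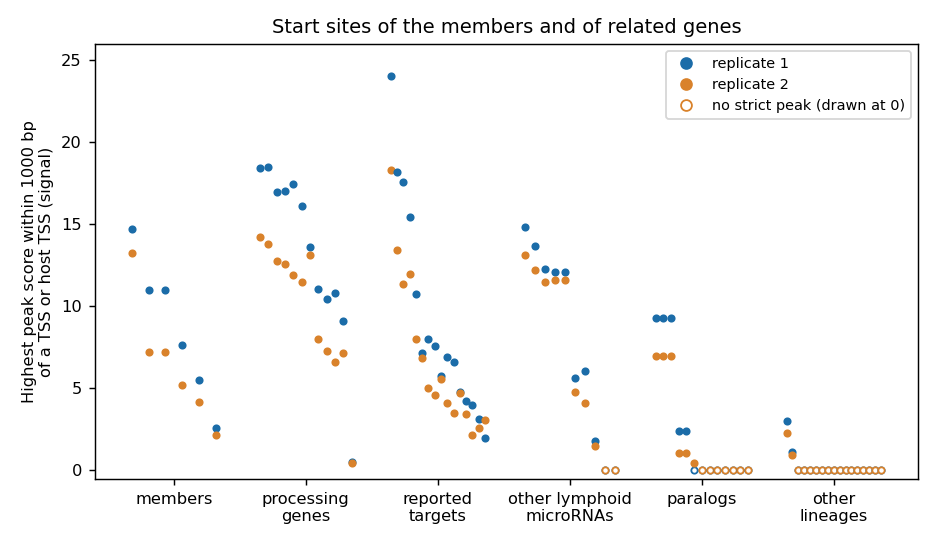
Highest strict peak score (signal) within 1000 bp of a start site, for the members and for 5 lists of related genes; each gene has 1 point for each replicate, ordered within a list by level, and open points at 0 mark genes with no strict peak. Processing genes lie highest as a group with a median of 13.6, and 15 of 17 microRNA genes of other lineages lie at 0.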

How the data were processed

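DNase-seq peaks, footprints and FDR tracks of thymus were used from 2 samples of 1 group, on mm10 per the labels. Every peak in the lists deposited by the authors has a signal score, on a scale that no source used here states. The q-values (false discovery rates, FDR) deposited by the authors cover stretches of bases under 0.05 alone. Footprint files hold 1 constant value, 0.01, and gave positions only. The aligner, the programs behind peaks and footprints, and the depth were not given in the sources used here, so no counting interval could be set. Reads were not analysed here, and sequences are those of the reference, not of the CAST/EiJ allele.

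The strict peak list of each sample (the one with fewer entries) was the main data. Overlapping entries were joined with the highest score, and peaks of both replicates overlapping by at least 1 bp formed shared regions. A start site took the highest score within 1000 bp of any TSS of GENCODE M21. The percentage of strict peaks that a region scored above includes peaks of equal score. The background for the members was all microRNA genes of the annotation, counted in the same way. Genes that share a host, such as those in Sfmbt2, each entered the background separately. A footprint counted as present in both replicates when one of replicate 1 overlapped one of replicate 2. Motifs were searched on both strands in 200 bp windows at region centres. For ETS factors the letters were either CCGGAA or the form CAGGAA, and for RUNX factors they were TGTGGT. E-boxes were searched with CAGCTG and also with the form CAGGTG, and the E-box of MYC with CACGTG. The TCF and LEF search used CTTTGA, that for GATA factors used AGATAA, that for IKZF factors used TGGGAA and that for MYB used AACTG. The AP-1 search used TGANTCA, the search for cyclic AMP elements used TGACGTCA and that for STAT factors used TTCNNNGAA. The E2F search used TTCCCGC and also the form TTGGCGC, the SP and KLF search used GGGCGG and the NFY search used CCAAT. The NRF1, NF-kB and CTCF motifs were searched as well. Letters of different motifs may overlap. A match counted as touched by a footprint when they overlapped.

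Regions described singly were those at the host start, the one nearest to the hairpin and the 3 highest of each locus; others were chosen after their values were seen. Some items of the lists and loci are not reported here. The members and gene lists were chosen with earlier results of these data known. The steps were tested on simulated data. Alternatives changed the peak list, the overlap, the reach, the TSS window, the TSS used, the scale and the replicates. Python 3.11.15, numpy 2.4.6, pysam 0.24.0, samtools 1.23.1 and matplotlib 3.10.9 were used.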

Additional observations from a re-analysis of the deposited data

How the results depend on the processing

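Of 109 values recomputed under another setting, 94 stayed within 1.5 times the reported count or within 1 SD of the reported score and 15 moved further. Some of the 94 had little or no room to move. Using only the outermost host start changed nothing, since most hosts have 1 annotated start or starts a few bp apart. Scores of single regions in the looser lists were those of the same peaks and equalled the reported ones. The 94 are therefore not a count of independent checks. A further 12, start site scores with 1 replicate left out, are the values of the other replicate and say nothing about stability; a score or count cannot change sign. The reach moved most counts of regions. Within 25 kb there were 0 regions at Mir181a-1 and at Mir181b-1, 6 at Mir150 and 3 at Mir17, and within 100 kb there were 8 at each gene of the Mir181 pair, 23 at Mir150, 5 at Mir155 and 8 at Mir17. With 50% reciprocal overlap Mir150 had 9 shared regions, and the Mir181 pair had 0 footprints of both replicates at each gene. A window of 2500 bp took in the farther region upstream of Mir17hg and gave its start a mean score of 7.13, and with that window 466 of the annotated microRNA genes had a peak by the hairpin in both replicates.

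With each replicate left out in turn, regions numbered 1 to 1 at Mir181a-1 and Mir181b-1, 16 to 16 at Mir150, 30 to 33 at Mir142, 3 to 4 at Mir155 and 5 to 7 at Mir17. Footprints numbered 96 to 98 at Mir142, and without replicate 2 their count of 98 was over 1.5 times the 64 of both replicates, since no overlap is then asked for. A window of 500 bp gave no value for the Mir17hg start, since replicate 1 had no peak in it. No paired analysis was possible because there was 1 group. The depth is not stated in the files, and its part in weak or missing peaks, such as those at the Mir155 and Mir17 hairpins, was not tested.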

Other observations

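Accessibility was broader around Mir142 in replicate 1. Within 50 kb of the hairpin, 19983 bases in replicate 1 and 10542 in replicate 2 were at an FDR of at most 0.001, a ratio of 0.528 for replicate 2 over replicate 1, beside 0.897 over the whole tracks. The same ratio was 0.861 at Mir150, 0.751 at Mir155, 1.10 at Mir17 and 1.23 at Mir181a-1. Of the 12 regions in Rnf43, 7 were found in replicate 1 alone, with scores of 0.385 to 0.904, and 0 in replicate 2 alone. The median log2 score of replicate 2 over replicate 1 in the 23 shared regions of Mir142 was -0.56, beside -0.22 over all shared regions. Of the 23, 21 were higher in replicate 1. For these counts of regions the share over all regions is not given. With 2 samples, a difference of this kind was not tested.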
